A study of Mus musculus with 8 samples.

Results

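The 8 genes of tryptophan and NAD metabolism described here were followed along the mouse intestinal crypt, namely Ido1, Kynu, Afmid, Qprt, Nampt, Naprt, Nmnat1 and Bst1. Every probe set annotated to exactly 1 of these genes was taken, which gave 17 of the 34945 single-gene probe sets, and all 8 genes were among the 18193 genes measured. The arrays profiled epithelial cells of C57BL/6 mouse intestine that had been freed with EDTA and Dispase and separated by flow cytometry. Cells were sorted either by surface EphB2, a receptor tyrosine kinase that is highest at the crypt base, into EphB2 High, EphB2 Medium and EphB2 Low fractions (2 arrays each), or by the green fluorescence of an Lgr5-EGFP knock-in allele, which marks crypt base stem cells, into Lgr5 High and Lgr5 Low fractions (1 array each). The EphB2 fractions were hybridized in 2 rounds with 1 array per fraction in each, and the Lgr5 fractions in a separate round. Ages, and whether replicates came from separate animals, are not given in the labels, so the p-values given below for other genes measure the spread between these arrays, which may be technical. The Lgr5 fractions come from animals with the knock-in allele. That allele is not named in the labels of the EphB2 fractions.

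Tryptophan that is not built into protein is largely broken down along the kynurenine pathway. Ido1 opens the indole ring, Afmid releases kynurenine from its formyl precursor, Kynu cleaves kynurenine and its hydroxylated form, and Qprt converts the end product quinolinate into a precursor of NAD. NAD is also made from dietary vitamins, by Naprt from nicotinic acid and by Nampt from nicotinamide, and Nmnat1 joins the resulting mononucleotides to adenylate in the nucleus. Bst1, also called CD157, is a cell surface ecto-enzyme that consumes NAD or its precursor nicotinamide riboside; it is known from bone marrow stroma, myeloid cells and Paneth cells. In the intestine, Ido1 is known as an interferon-inducible enzyme of epithelium and dendritic cells.

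The 8 genes were chosen by function with the EphB2 High minus EphB2 Low differences of these arrays in view, in which Bst1 and Ido1 were among the largest falls. The EphB2 values of all 8 are therefore a description, and their differences between EphB2 fractions are given without p-values; the counts past the threshold stand once, beside those of all genes. Levels are the deposited log2 values, so a difference of 1 is a 2-fold change, and errors of differences are standard errors of a limma fit to the 6 EphB2 arrays. Each gene is represented by its brightest probe set unless stated otherwise. Array medians lay between 6.12 and 6.20. In sorted populations, fewer cells that express a gene and less RNA per cell cannot be told apart.

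The fractions carried the markers of their labels. The 7 epithelial markers (among them Epcam and Vil1) had a median of 13.62 to 13.87 on every array. All 7 stem cell markers were higher in EphB2 High than in EphB2 Low cells, with a median difference of 3.81, and Lgr5 itself was higher by 4.25 ± 0.25 in that comparison and by 4.39 between the 2 Lgr5 arrays. All 9 measured enterocyte markers were lower in EphB2 High cells, with a median of -3.17. Their summed linear signal was 29865 to 31009 on the EphB2 High arrays, 64150 to 66035 on the Medium arrays and 134311 to 138195 on the Low arrays, and 19546 and 86046 on the Lgr5 High and Low arrays. The median over 10 myeloid markers was 3.88 to 4.43 and over 9 lymphocyte markers 4.27 to 5.21, below the array medians. The pan-leukocyte gene Ptprc lay between 3.40 and 4.03. Single markers such as Cd68 (6.24 to 8.42), Lyz2 (9.58 to 12.27) and Itgae (6.51 to 7.35) lay above the array medians. Gzma was at 7.05 on the Lgr5 High and 4.04 on the Lgr5 Low array. The 9 stromal and endothelial markers had a median of 4.08 to 4.64, though Pdgfrb (6.75 to 7.49) and Vim (7.59 to 11.05) stood higher.

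**Figure D1:**
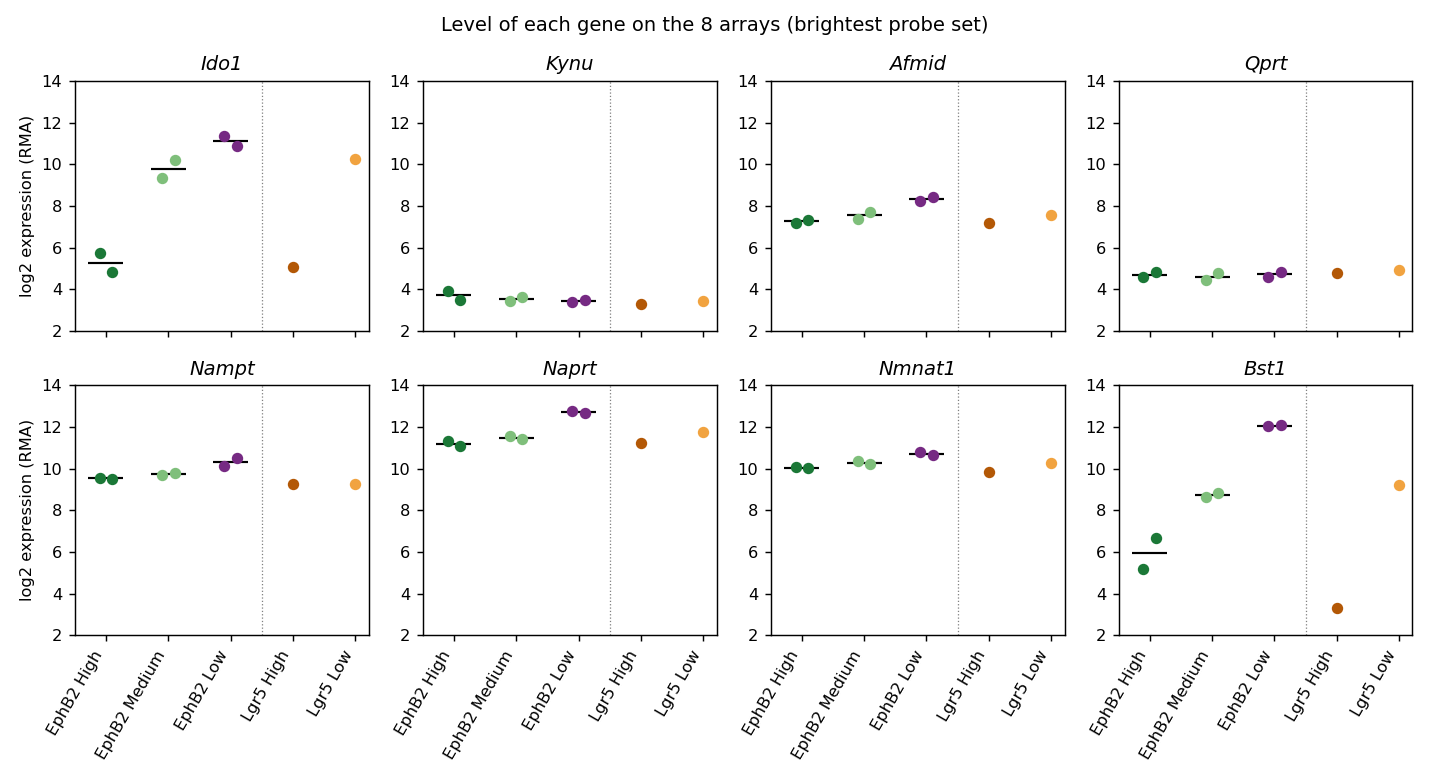
Log2 expression (RMA) of the 8 genes on each array, with 1 point per array and a horizontal bar at the mean of the 2 arrays of each EphB2 fraction. Ido1 and Bst1 span 6.52 and 8.78 log2 units over the 8 arrays, whereas Kynu and Qprt span 0.65 and 0.50.

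Of the tryptophan-degrading enzymes, Ido1 had by far the widest range. On probe set 1420437_at its level was 5.73 and 4.84 on the EphB2 High arrays, 9.35 and 10.20 on the Medium arrays, and 11.36 and 10.86 on the Low arrays. The 3 fractions did not overlap, and the High arrays lay below the array medians while all Medium and Low arrays lay above them. The difference between EphB2 High and EphB2 Low cells was -5.83 ± 0.40 (SE on the log2 scale, n = 2 arrays per fraction), so the signal in Low cells was 56.8-fold that in High cells. Within each hybridization round the difference was -5.63 and -6.02. On the log2 scale most of the step lay early on the axis. Medium cells had 22.4-fold the signal of High cells, and Low cells 2.53-fold that of Medium cells. The interval between High and Medium thus held 77.0% of the whole log2 difference, and between 69.7% and 84.3% under the alternative settings. In linear signal the larger rise lay between Medium and Low cells.

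Afmid followed the same direction on a much smaller scale. Its level was 7.20 and 7.31 on the EphB2 High arrays, 7.38 and 7.71 on the Medium arrays, and 8.25 and 8.44 on the Low arrays. The Low arrays stood apart from the other 4, and the High and Medium arrays were close. The difference between High and Low was -1.09 ± 0.16, which was 2.13-fold more signal in Low cells, with -1.05 and -1.13 in the 2 rounds. Of its 3 other probe sets, 1428885_at (-0.62 ± 0.12) and 1431722_a_at (-0.65 ± 0.17) differed in the same direction. The dim probe set 1447638_at (2.59 to 2.97 over all arrays) differed by 0.18 ± 0.15.

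Kynu and Qprt, which act further down the pathway, stayed dim. Kynu lay between 3.28 and 3.93 on all 8 arrays, a level below which only 15.1% of the single-gene probe sets fell, and its High minus Low difference was 0.26 ± 0.18. The second Kynu probe set, 1451903_at, was dimmer still (2.54 to 3.43) and differed by -0.52 ± 0.27. Qprt lay between 4.45 and 4.95, with a difference of -0.01 ± 0.17. Its other probe set, 1418837_at, differed by -0.79 ± 0.39, with the 2 High arrays far apart at 3.55 and 4.72. The probe sets of Kynu differed in sign between these fractions, and those of Qprt in size. RMA values carry no detection call, so these levels do not show whether either transcript was present.

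The vitamin-using enzymes of NAD synthesis all showed their highest levels in EphB2 Low cells. Naprt, which starts the route from nicotinic acid, was at 11.30 and 11.10 on the EphB2 High arrays, 11.55 and 11.42 on the Medium arrays, and 12.79 and 12.68 on the Low arrays. Its Low arrays were separated from all others by more than the spread within any fraction. The difference between High and Low was -1.54 ± 0.13 (2.90-fold more signal in Low cells), and -1.49 and -1.59 within the rounds. Only 18.4% of it lay between High and Medium (12.5% to 23.6% under the alternative settings). The difference between Medium and Low was -1.25 ± 0.13.

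Nampt, the rate-limiting enzyme of nicotinamide salvage, was at 9.56 and 9.49 on the EphB2 High arrays, 9.69 and 9.80 on the Medium arrays, and 10.13 and 10.53 on the Low arrays. The order High, Medium, Low held in both rounds, with a difference between High and Low of -0.80 ± 0.16 (1.74-fold), split as -0.57 and -1.04 over the rounds. A further bright probe set, 1455320_at, gave -1.00 ± 0.22, and the dim 1448607_at (5.81 to 6.40) gave -0.13 ± 0.23. Nmnat1 was at 10.08 and 10.02 on the EphB2 High arrays, 10.36 and 10.20 on the Medium arrays, and 10.78 and 10.66 on the Low arrays. Its difference was -0.67 ± 0.12 (1.59-fold), and its other probe set 1425773_s_at gave -0.80 ± 0.15. For both genes the larger part of the difference lay between Medium and Low, with 26.7% of it for Nampt and 34.3% for Nmnat1 between High and Medium.

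Promoter sequences of 4 members were found in a RefSeq table (build GRCm38.p6, 250 bases before to 50 after the annotated start). They are shown because these were the members with an entry there. Ido1, Bst1, Naprt and Kynu had none, so no motif was sought for them. Nampt, Nmnat1 and Afmid had modestly higher levels in EphB2 Low cells on their brightest probe sets, and the probe sets of Qprt disagreed. The windows are chr12:32820085-32820384 (+ strand), chr4:149485161-149485460 (- strand, 1 of 2 entries), chr11:117825669-117825968 (+ strand) and chr7:127121980-127122279 (- strand), each written 5′ to 3′ along the gene with CG dinucleotides in capitals.
Nampt: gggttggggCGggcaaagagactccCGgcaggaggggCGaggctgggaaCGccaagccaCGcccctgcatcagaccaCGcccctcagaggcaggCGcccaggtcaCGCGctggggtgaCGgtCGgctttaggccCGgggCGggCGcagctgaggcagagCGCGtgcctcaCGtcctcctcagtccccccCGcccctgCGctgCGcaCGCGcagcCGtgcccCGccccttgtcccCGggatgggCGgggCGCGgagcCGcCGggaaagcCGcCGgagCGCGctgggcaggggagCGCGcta
Nmnat1: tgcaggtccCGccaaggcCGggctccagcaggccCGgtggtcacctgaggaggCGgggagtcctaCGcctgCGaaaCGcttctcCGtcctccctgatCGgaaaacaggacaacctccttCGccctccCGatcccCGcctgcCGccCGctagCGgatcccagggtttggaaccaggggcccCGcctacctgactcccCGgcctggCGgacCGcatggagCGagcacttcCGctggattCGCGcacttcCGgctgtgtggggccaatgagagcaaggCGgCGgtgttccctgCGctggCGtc
Afmid: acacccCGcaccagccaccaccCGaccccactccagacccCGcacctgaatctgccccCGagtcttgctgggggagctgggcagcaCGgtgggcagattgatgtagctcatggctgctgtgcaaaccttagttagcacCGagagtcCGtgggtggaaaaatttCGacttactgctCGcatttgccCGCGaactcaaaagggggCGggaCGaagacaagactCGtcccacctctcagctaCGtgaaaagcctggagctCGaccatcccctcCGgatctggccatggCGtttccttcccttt
Qprt: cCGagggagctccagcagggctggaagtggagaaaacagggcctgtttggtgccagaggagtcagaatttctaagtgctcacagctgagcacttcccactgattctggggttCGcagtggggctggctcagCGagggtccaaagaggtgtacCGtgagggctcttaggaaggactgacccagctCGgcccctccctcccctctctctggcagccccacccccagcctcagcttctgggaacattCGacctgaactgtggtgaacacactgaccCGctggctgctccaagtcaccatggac
The Nampt window held 36 CG dinucleotides and 76.3% G and C, that of Nmnat1 28 and 69.0%, and that of Afmid 18 and 59.7%. The Qprt window held 7, with 60.3% G and C. The ratio of observed to expected CG was 0.825, 0.788 and 0.685 for Nampt, Nmnat1 and Afmid and 0.256 for Qprt, beside a median of 0.384 over the 32851 promoters of the table. Both strands were searched for 6 motifs: CAAAGTCCA for HNF4 (in 0.475% of all promoters), a motif of HNF1 (0.399%), AGATAA for GATA factors (11.2%), TTTATNG for CDX factors (10.9%), TTCNNNGAA for the interferon gamma site (8.3%) and the interferon response element (3.44%). The only match in the 5 windows was TTCTGGGAA in that of Qprt, an interferon gamma site motif that starts at position -19 from the annotated start. These are matches of letters, with no data on binding.

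Bst1 was the member with the largest difference. On probe set 1449453_at its level was 5.18 and 6.69 on the EphB2 High arrays, 8.64 and 8.84 on the Medium arrays, and 12.05 and 12.08 on the Low arrays. The fractions did not overlap, and the High arrays differed from each other by more than those of any other member. The difference between High and Low was -6.12 ± 0.46, or 69.7-fold more signal in Low cells. Leaving out replicate 1 of the High fraction gave -5.37, and leaving out replicate 2 gave -6.88. The second probe set, 1449454_at, had closer High arrays (5.09 and 5.49) and gave -5.95 ± 0.17. On its brightest probe set Bst1 changed by -2.80 ± 0.46 between High and Medium and by -3.32 ± 0.46 between Medium and Low. Thus 45.7% of the log2 difference lay between High and Medium (38.1% to 51.7% under the alternative settings), beside 77.0% for Ido1. The second probe set changed by -2.41 ± 0.17 and then by -3.54 ± 0.17, with 40.4% between High and Medium, so there the later step was the larger. The enterocyte markers above moved the same way along these fractions. Of the 7 goblet cell markers 4 were lower in EphB2 High than in EphB2 Low cells and 1 was higher, with a median difference of -0.40. Between the Lgr5 arrays the goblet median was -1.72. The part of enterocytes or goblet cells in the differences of Ido1 and Bst1 was not tested. Of the 10 myeloid markers 2, Cd68 and Lyz2, were higher in EphB2 High than in EphB2 Low cells. The summed linear signal of the 10 was 1662 to 1767 on the EphB2 High and 1082 to 1110 on the EphB2 Low arrays. It was 2316 and 5338 on the Lgr5 High and Low arrays. Lyz2 made up most of each sum, with a log2 level of 10.93 on the Lgr5 High and 12.27 on the Lgr5 Low array. The sums thus follow that gene more than the list. Of the 7 Paneth cell markers 6 were higher in EphB2 High cells, with a median difference of 1.83, opposite to Bst1. Between the Lgr5 arrays their median difference was -0.43, in the direction of Bst1, with a summed signal of 51097 on the High and 70728 on the Low array.

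**Figure D2:**
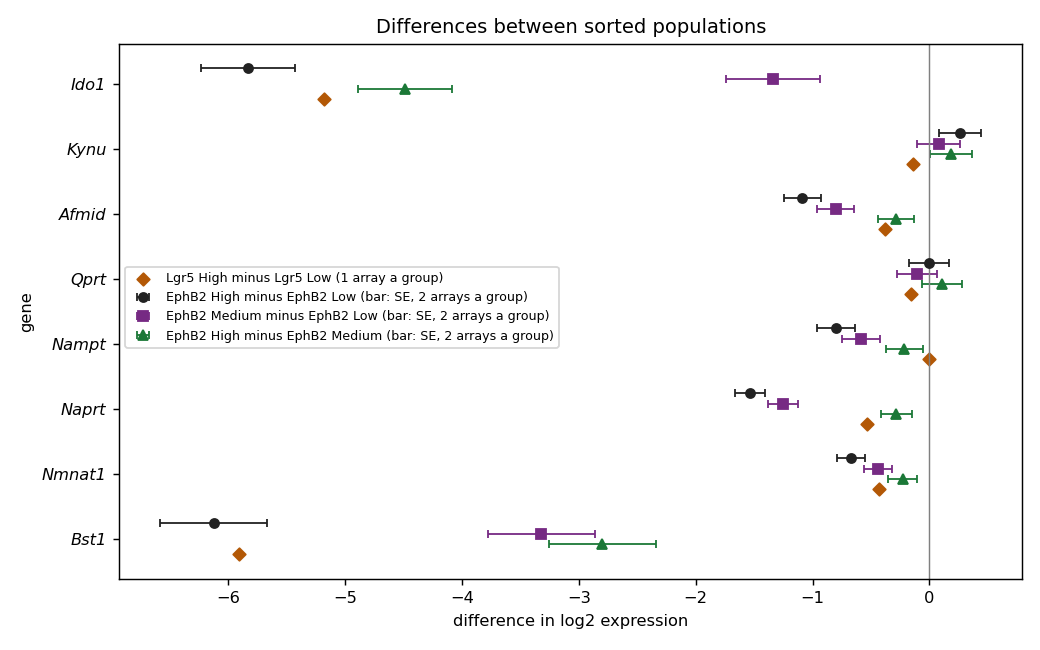
Differences in log2 expression between sorted fractions for each gene, with bars of 1 standard error (2 arrays per group) for the EphB2 comparisons and none for the Lgr5 comparison (1 array per group). For Ido1 the High minus Medium difference (-4.49) is larger than Medium minus Low (-1.34), whereas for Naprt, Afmid, Nampt and Nmnat1 the order is the other way round.

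In the limma fit over all genes, 6 of the 8 members lay past an adjusted p of 0.05 as lower in EphB2 High than in EphB2 Low cells (Ido1, Bst1, Nampt, Naprt, Nmnat1 and Afmid), where 15.3% of all genes did and 37.3% in either direction. Between Medium and Low, 5 of 8 did (all of these but Ido1), beside 10.1% of all genes as lower and 24.7% in either direction. Between High and Medium, Ido1 alone of the 8 did, beside 1.15% of all genes as lower and 0.214% as higher. The genes were chosen with the first of these comparisons in view, and the others share its arrays, so nothing is read from any of the 3 counts. The Ido1 difference between High and Medium stayed between -4.93 and -4.04 under the alternative settings, and that of Bst1 between -3.56 and -2.05. Which of Ido1 and Bst1 passed in that comparison changed with the setting.

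The position of the Medium cells between the other fractions was tested, because its estimation error is uncorrelated with that of the High minus Low difference. A gene with a larger High minus Low difference can still depart further. The choice of members therefore bears on the counts below, and nothing is read from them. The test asked whether the Medium mean departed from the midpoint of the High and Low means. By limma, 0 of the 8 members passed after Benjamini-Hochberg adjustment over all genes, where 0.0055% of all genes (1 gene) did. At an unadjusted p below 0.05 there were 2 members, against 11.9% of all genes. Ido1 lay above the midpoint by 1.57 ± 0.35 (limma adjusted p = 0.271) in both rounds, and Naprt lay below it by -0.49 ± 0.11 (limma adjusted p = 0.285), also in both rounds. Bst1 departed by -0.26 ± 0.40 (-0.57 ± 0.14 on its second probe set) and Afmid by -0.26 ± 0.14. With 1 gene of 18193 past the threshold, a miss in this test says little about a member, and Ido1 was not tested against Naprt.

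**Figure D3:**
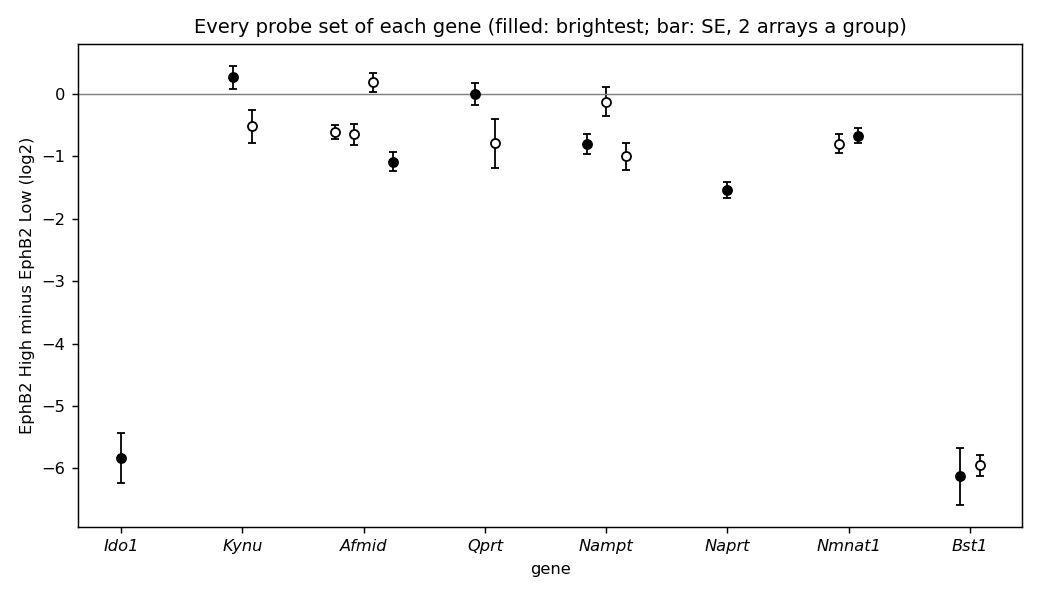
EphB2 High minus EphB2 Low difference (log2) for each of the 17 probe sets, with bars of 1 standard error (2 arrays per group); filled points are the brightest probe set of a gene. The values run from -6.12 (Bst1, 1449453_at) to 0.26 (Kynu, 1430570_at). The genes were chosen with this comparison in view, so nothing is read from how many points lie below zero. Probe sets of Kynu and Qprt are dim.

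The Lgr5 sort was a separate set of cells on 1 array per fraction, so its differences have no replicate check. Ido1 was at 5.06 on the Lgr5 High array and at 10.24 on the Lgr5 Low array, a difference of -5.18 (36.2-fold more signal in Lgr5 Low cells). Bst1 was at 3.30 and 9.20, a difference of -5.90, and at 3.74 and 7.69 on its second probe set, a difference of -3.94. Since RMA carries no detection call, the size of the Bst1 difference, with a High value as dim as 3.30, is less certain than its direction, and the mean of both probe sets gave -4.92. Ido1 and Bst1 were the 2 members of 8 that were at least 2-fold lower in Lgr5 High cells, where 5.07% of all genes were. No member was at least 2-fold higher, where 2.34% of all genes were.

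The other members differed little between the Lgr5 arrays. Naprt was at 11.24 and 11.77 on the High and Low arrays, a difference of -0.54. Nmnat1 differed by -0.43 but by only -0.035 on its other probe set. Afmid differed by -0.38 (-0.51 to 0.08 on its other probe sets). Qprt differed by -0.16 and Kynu by -0.14, and their second probe sets gave -0.26 and 0.02. Nampt had the same deposited value of 9.26 on both arrays, and its other probe sets gave 0.12 and 0.14. Along the EphB2 sort Nampt had been lowest in High cells on both bright probe sets. That difference between the sorts was not tested.

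Set beside the EphB2 fractions, the Lgr5 Low array lay near the Medium arrays for Ido1 (0.47 above their mean) and Bst1 (0.46 above), and below the Low arrays for both. The Lgr5 High array minus the EphB2 High mean was -0.22 for Ido1. For Bst1 it was -2.64 on the brightest probe set, on which the 2 EphB2 High arrays lay far apart, and -1.55 on the second. The enterocyte markers were also lowest on the Lgr5 High array. Sort and hybridization round cannot be told apart in these contrasts between sorts.

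For Ido1 and Bst1, the only members that spanned at least 2 log2 units, the genes of most like pattern were sought. Likeness was the root mean square difference over the 8 arrays between profiles centred on their own mean. Bst1 was followed most closely by Slc5a4a, of the sodium-glucose cotransporter family (0.29), by Slc6a19, the brush border transporter of neutral amino acids (0.30), and by Cubn, which takes up intrinsic factor with its vitamin B12 (0.34). For Ido1 the closest were 2010003K11Rik (0.73), Slc2a2, the glucose transporter GLUT2 (0.77), and Nat8f5, of the N-acetyltransferase 8 family (0.84). Ido1 and Bst1 differed from each other by 1.22 on this scale. All these profiles share the same 8 arrays, on which most of the spread lies between the sorted fractions.

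**Figure D4:**
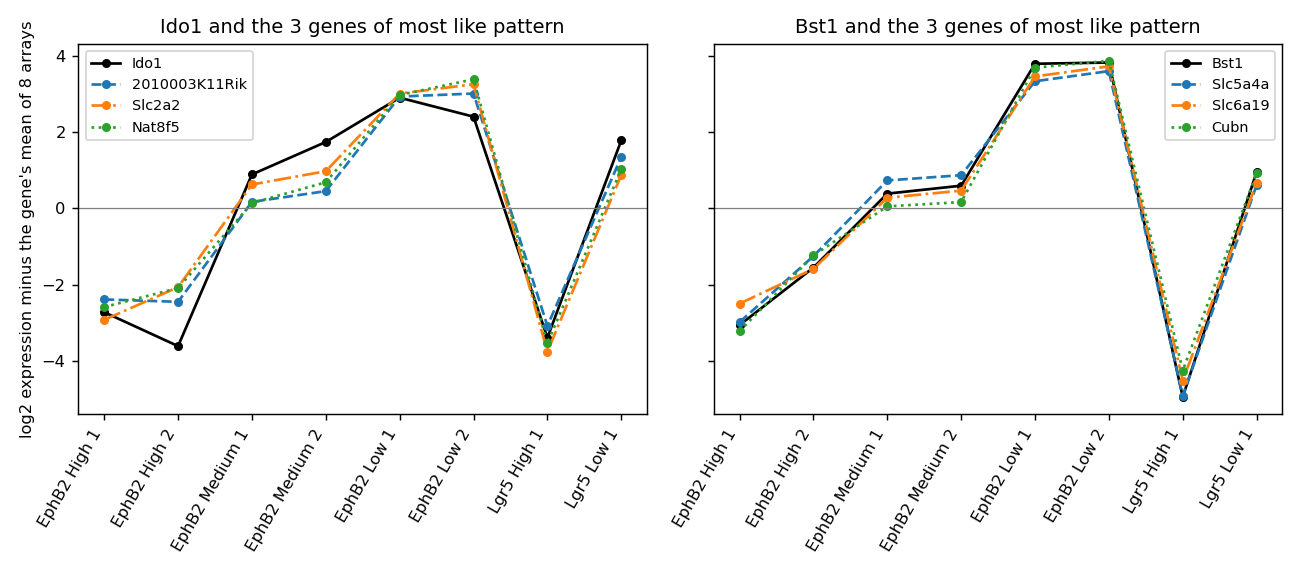
Log2 expression minus each gene's own mean over the 8 arrays, for Ido1 (left) and Bst1 (right) with the 3 genes of smallest root mean square difference. The root mean square difference is 0.29 to 0.34 for the Bst1 neighbours and 0.73 to 0.84 for the Ido1 neighbours, and single arrays can lie further apart.

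The other genes of these pathways were taken from 7 lists of 62 genes, of which 58 had a single-gene probe set. Between EphB2 High and EphB2 Low cells 20 were lower, 5 were higher and 33 did not pass (limma, Benjamini-Hochberg adjustment over all genes), while 15.3% of all genes were lower and 22.0% higher. The median difference was -0.16, beside 0.01 for all genes. The lists were made with earlier results of these data known. Their counts in any comparison are therefore a description, and no enrichment is read from them. Of the 8 other kynurenine enzymes measured, 7 did not pass and 1 was higher. That gene was Got2, a mitochondrial aminotransferase that can also transaminate kynurenine (0.53 ± 0.11, adjusted p = 0.0151). Its 4 probe sets disagreed in sign (-0.13 to 1.10), and leaving out either High array or replicate 2 of the Low fraction ended the call (adjusted p of 0.0612 to 0.081). Ido2, which neighbours Ido1 in the genome, and Tdo2, the liver enzyme of the same reaction, were dim and differed by 0.09 ± 0.14 and -0.15 ± 0.19. Kmo, which hydroxylates kynurenine, differed by -0.65 without passing, and passed with the hybridization round as a block (adjusted p = 0.0393). Cd38, the neighbour of Bst1 in the genome and its closest relative, was not analysed here.

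Genes that carry tryptophan across membranes differed in both directions. Of 6 transport genes 4 were lower in EphB2 High cells and 1 was higher, beside 15.3% and 22.0% of all genes. Slc6a19 was at 6.07 and 6.99 on the EphB2 High arrays and at 12.04 and 12.30 on the Low arrays, a difference of -5.64 ± 0.30. It was already known as one of the largest differences when the lists were made. Slc7a8, a basolateral transporter of neutral amino acids, differed by -1.82 ± 0.22 and Slc3a2, the shared heavy chain of several amino acid transporters, by -1.21 ± 0.13. Slc16a10, a transporter of aromatic amino acids, differed by -0.95 ± 0.19, and its call was lost when replicate 1 of the High fraction was left out (adjusted p = 0.061). In the opposite direction, Slc7a5, the large neutral amino acid transporter of growing cells that pairs with Slc3a2, was higher in EphB2 High cells by 2.14 ± 0.24 (adjusted p = 0.00177). Its arrays read 10.12 and 10.64 in High cells against 8.49 and 7.99 in Low cells, without overlap.

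Of 7 genes of serotonin synthesis and other tryptophan use 4 were lower and 1 was higher in EphB2 High cells. Of all genes 15.3% were lower and 22.0% higher. Maob and Maoa, which degrade serotonin, differed by -2.72 ± 0.26 and -1.16 ± 0.12. Ddc, which decarboxylates its precursor, differed by -1.20 ± 0.15, though its second probe set gave only -0.20. Tph1, the rate-limiting enzyme of gut serotonin synthesis, differed by -2.29 ± 0.61 (adjusted p = 0.03). Leaving out replicate 2 of the High fraction or either Low array ended the Tph1 call (adjusted p of 0.0979 to 0.146). Of the 7 enteroendocrine markers, 3 were likewise lower in High cells, with a summed signal of 8288 to 14879 on the High and 19114 to 23901 on the Low arrays, and their part in the Tph1 difference was not tested. The tryptophanyl-tRNA synthetase gene Wars was higher in High cells by 0.74 ± 0.12.

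Among 8 further genes of NAD synthesis, 2 were lower in EphB2 High cells and 6 did not pass. Of all genes 15.3% were lower and 37.3% passed in either direction. The lower genes of the list were Nadsyn1 (-0.63 ± 0.12) and Nadk (-0.45 ± 0.11). Nadsyn1 completes NAD on the routes from tryptophan and nicotinic acid, and Nadk phosphorylates NAD. Leaving out replicate 2 of the High fraction ended the Nadsyn1 call (adjusted p = 0.0586). The Nadk call was lost when any array but replicate 1 of the Low fraction was left out (adjusted p up to 0.117). The paralogs of Nmnat1 did not pass, with Nmnat3 at -0.01 and Nmnat2 at 0.69; Nmnat2 passed as higher with the round as a block (adjusted p = 0.032).

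Of 7 genes of nicotinamide disposal and NAD recycling 4 were lower in EphB2 High cells, beside 15.3% of all genes. Enpp3 and Nt5e, both enzymes on the cell surface that break down extracellular nucleotides, differed by -3.86 ± 0.38 and -3.88 ± 0.50. The mean of all probe sets gave smaller values, -2.26 for Enpp3 and -1.61 for Nt5e, whose probe sets differed in sign. Leaving out replicate 1 or 2 of the High fraction put Nt5e at -4.51 or -3.24. Nt5e was at 5.38 and 4.11 on the High arrays and 5.50 and 4.65 on the Medium arrays, against 8.95 and 8.29 on the Low arrays, so its step lay between Medium and Low. Nudt12, which cleaves NADH, differed by -1.32 ± 0.15 and the nucleoside phosphorylase Pnp by -0.67 ± 0.12.

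Of the 14 measured enzymes that consume NAD 4 were lower, 2 were higher and 8 did not pass, with a median difference of -0.06 beside 0.01 for all genes; the share called is near the 37.3% of all genes. Parp1 and Parp2, which attach ADP-ribose at DNA breaks, were higher in EphB2 High cells by 1.06 ± 0.19 and 0.73 ± 0.11. Parp4 (-1.33 ± 0.14), the nucleolar sirtuin Sirt7 (-0.70 ± 0.12), the mitochondrial sirtuin Sirt3 (-0.60 ± 0.11) and Parp3 (-1.56 ± 0.33) were lower. Leaving out replicate 2 of the High fraction ended the call of Sirt3 (adjusted p = 0.0611), and leaving out replicate 2 of the Low fraction that of Parp3 (0.0709). Of 8 genes that sense tryptophan metabolites or respond to them 2 were lower, beside 15.3% of all genes. Cyp1a1, a target of the aryl hydrocarbon receptor, was at 3.53 and 3.67 on the High arrays, 4.07 and 4.26 on the Medium arrays and 6.49 and 6.78 on the Low arrays (-3.04 ± 0.15, adjusted p = 0.000219). The receptor gene Ahr itself differed by 0.12 and did not pass. Tiparp, another target, differed by -0.47 ± 0.15, and its call was lost without each array in turn (up to an adjusted p of 0.218).

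**Figure D5:**
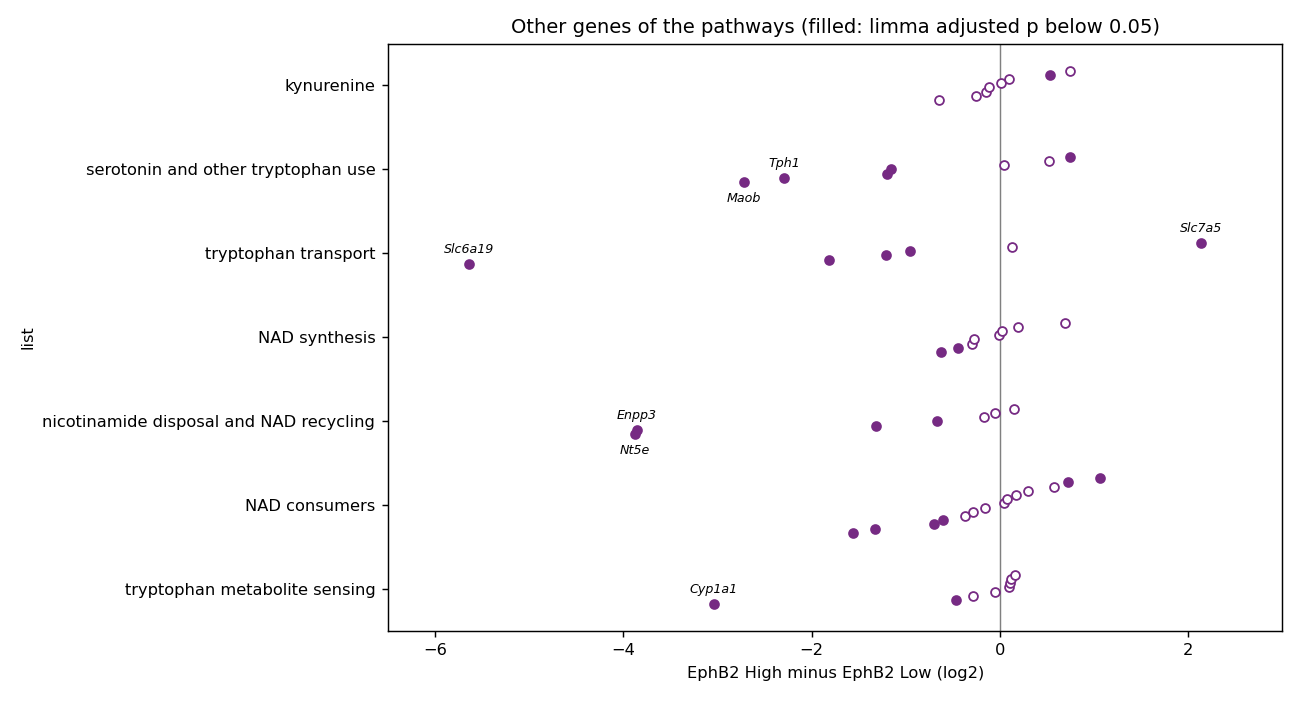
EphB2 High minus EphB2 Low difference (log2) of the 58 measured genes in 7 lists, with filled points for genes at a limma adjusted p below 0.05 (n = 2 arrays per group). The points furthest to the left are Slc6a19 (-5.64), Nt5e (-3.88) and Enpp3 (-3.86), and the point furthest to the right is Slc7a5 (2.14).

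Between EphB2 Medium and Low cells 14 of the 58 were lower and 4 were higher, beside 10.1% and 14.6% of all genes. These calls numbered 18 in all. Fewer passed when either Medium array or replicate 2 of the Low fraction was left out, and fewer of all genes did too. Between High and Medium cells 1 of the 58 passed, Slc6a19 (-2.42), beside 1.36% of all genes in either direction. That call was lost without either Medium array and without either Low array, and calls over all genes also became fewer in those fits. The Slc6a19 difference was -2.51 without Medium replicate 1 and -2.32 without Medium replicate 2. On the Lgr5 arrays Slc6a19 (-5.18), Enpp3 (-3.61), Tph1 (-2.73), Maob (-1.51) and Maoa (-1.33) were at least 2-fold lower in High cells and Nmnat2 (1.21) at least 2-fold higher. Nt5e differed by -0.79 there and Slc7a5 by 0.40.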

How the data were processed

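Affymetrix arrays of 8 sorted samples were analysed. The deposited table holds log2 values that the authors made with RMA, per the submitters' processing notes; version and joint normalization of the 8 arrays are not given in the sources used here. Since RMA makes array distributions nearly equal, differences in RNA content of the cells are not visible, and for arrays the number of samples limits precision. Of 45101 probe sets, 34945 named 1 gene (932 several, 9160 none, 64 controls left out) in the platform annotation. Symbols were updated by gene ID through a RefSeq table, in which 34741 matched. The brightest probe set over the EphB2 arrays stood for each of 18193 genes.

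Limma 3.58.1 (R 4.3.3) was fitted to the 6 EphB2 arrays by group (3 residual degrees of freedom, no dim filter, 2-sided, Benjamini-Hochberg over all genes) and tested on simulated data. The labels pair arrays by hybridization round; deviations of same-numbered arrays correlated at 0.452, 0.131 and 0.212. Members and lists were chosen with earlier results of these data known. Alternatives were the round as a block, quantile normalization, a filter on dim genes, probe set means, all 8 arrays, and leaving out each array. All members were named, and of the lists up to 20 called genes (up to 4 a list and direction) by smallest p, with Ido2, Tdo2 and Cd38. Got2, Nadk, Tph1, Tiparp, Parp3, Kmo, Nmnat2, Nmnat3 and Ahr were named beyond that rule, after their values were seen.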

Additional observations from a re-analysis of the deposited data

How the results depend on the processing

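For the 58 other pathway genes, the count of calls between EphB2 High and Low (25) stayed within 1.5 times under every alternative run, with 28 under the replicate block and 19 to 25 when 1 array was left out. Of the 25 genes, 17 kept the call without each array in turn. Between Medium and Low the count (18) was 20 with the block and 4 to 16 without 1 array. Between High and Medium the count (1) was 2 with the block, 3 with the filter on dim genes and 0 to 1 without 1 array; the filter tested 9598 genes in place of 18193. The count of members that departed from the midpoint was 0 under every alternative. The block changed no call of a member in the 3 comparisons between EphB2 fractions, but other settings did. Bst1 passed between High and Medium with quantile normalization, the probe set mean or the filter on dim genes. Of all genes tested, 1.51%, 1.5% and 5.31% passed in those fits. Between Medium and Low, Ido1 passed with the filter, which it entered through its Medium and Low arrays, and 49.7% of the genes tested passed. Nampt did not pass there with the probe set mean, where 24.4% of genes did. The members were chosen with these arrays in view, so nothing is read from their calls under any setting. Leaving out 1 array changed calls of Ido1, Bst1, Nampt, Nmnat1 and Afmid. Of 274 member differences between fractions under the alternatives 260 kept their sign, and those that did not belonged to Qprt, Kynu and, between the Lgr5 arrays, Nampt. Of the departures from the midpoint, those of Kynu, Qprt and Bst1 (0.12 without EphB2 High replicate 2) changed sign under at least 1 setting. With 2 arrays per group, a call can rest on 1 array. Calls over all genes also became fewer in each comparison between EphB2 fractions when any 1 array was left out. Dim probe sets near the bottom of the range limit what can be said of Kynu, Qprt, Ido2 and Tdo2.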
